A study of Mus musculus with 4 samples.

Results

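The EMILINs and multimerins are a small family of secreted glycoproteins, and their 5 mouse genes, Mmrn1, Mmrn2, Emilin1, Emilin2 and Emilin3, are described here in lymphatic endothelial cells (LECs). The members were the rows of the deposited table whose Ensembl gene ID has one of these symbols in GENCODE, 5 of 55385 gene IDs, and all 5 were among the 19479 genes with enough reads to be tested. RNA was sequenced from LECs, taken by sorting of CD45- PDPN+ CD31+ cells out of trunk tissue of E13.5 mouse embryos from which limbs, tail, inner organs and cranial tissue had been taken off. There were 2 libraries with the label Osr1 GCE/GCE, here GCE/GCE-labelled libraries, and 2 libraries of Osr1 controls, and cells of 8 to 10 embryos were pooled for each library. In Osr1 GCE/GCE embryos both copies of Osr1, a zinc finger transcription factor of the embryonic mesenchyme, carry the GCE insertion, which brings eGFP and a tamoxifen-inducible Cre under the Osr1 promoter. The Osr1 controls are wild type in the sample labels, whereas the study describes this group as a mix of Osr1+/+ and Osr1 GCE/+ embryos, and the sources used here do not give how many of each went into a pool. The allele is carried by every cell of the embryo and was not removed in LECs alone. The comparison asks how LEC transcripts differ when Osr1 function is lost in the tissue around them. Embryos are hidden within pools, so the spread between libraries is a spread between pools.

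Proteins of this family share an N-terminal cysteine-rich EMI domain and long coiled coils, and most end in a gC1q domain, which EMILIN3 lacks. EMILIN1 sits on elastic fibres and on the anchoring filaments that tie lymphatic capillaries to the matrix, and mice without it have enlarged and leaky lymphatic vessels. Multimerin 1 is stored in platelets, megakaryocytes and endothelium and its gene is used as a marker of lymphatic endothelium, whereas multimerin 2 belongs to the extracellular matrix of endothelium of all kinds.

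The GCE/GCE-labelled libraries held 37865172 and 31586765 reads in genes, and the Osr1 controls held 53438492 and 36535451. Osr1 itself had normalized counts of 168 and 303 in the GCE/GCE-labelled libraries, against 32.8 and 30.4 in Osr1 controls (log2 fold change 2.80 ± 0.31, standard error, limma adjusted p = 0.0262). This direction goes against a loss of the gene, but counts over the whole gene cannot separate GCE allele transcripts from intact ones, so groups are called by their labels and every direction below is read between labelled groups. Among sorting markers, Pdpn was higher in the GCE/GCE-labelled libraries (log2 fold change 0.61, adjusted p = 0.0329 from limma), a call that ended without either of those libraries (adjusted p = 0.0849 without replicate 1 and 0.0732 without replicate 2), and Pecam1, the gene of CD31, had an estimate of 0.23 that did not pass (adjusted p = 0.204). Of 8 LEC markers 7 were tested, and the list had a summed level of 2982 and 2747 TPM (transcripts of a gene per length, scaled to a fixed library sum) in the GCE/GCE-labelled libraries, against 1710 and 2375 TPM in Osr1 controls, while Ccl21a was near 0 in all libraries. Summed levels of 10 mesenchymal markers were 1403 and 1656 TPM in the GCE/GCE-labelled libraries, against 2817 and 2255 TPM in Osr1 controls. Replicate 1 of the Osr1 controls stood apart, with the lowest LEC marker sum and the highest mesenchymal, mural and blood endothelial marker sums. In a bulk library, fewer cells of a type and less RNA per cell cannot be told apart.

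Mmrn1 was by far the most abundant member and the one member that passed the test between the groups. It averaged 892 ± 13.3 TPM in the GCE/GCE-labelled libraries and 518 ± 97.0 TPM in Osr1 controls (SD, n = 2 each). By mean TPM over the 4 libraries it ranked 141 of 55144 genes. The second level was shared by Mmrn2, at 144 and 130 TPM in the GCE/GCE-labelled libraries and 131 and 121 TPM in Osr1 controls, and Emilin1, at 115 and 126 TPM in the GCE/GCE-labelled libraries and 131 and 116 TPM in Osr1 controls. Emilin3 followed with 14.2 and 20.2 TPM in the GCE/GCE-labelled libraries, against 29.3 and 20.8 TPM in Osr1 controls. Emilin2 was the lowest with 9.40 and 11.2 TPM in the GCE/GCE-labelled libraries, against 14.8 and 12.6 TPM in Osr1 controls. This order held in 4 of 4 libraries. Within a library Mmrn1 stood 3.43 to 6.93 times above Mmrn2, Emilin1 stood 4.45 to 8.05 times above Emilin3, and Emilin3 stood 1.51 to 1.98 times above Emilin2. Mmrn2 stood at most 1.25 times above Emilin1, so these neighbours were not separated beyond their spread. The fewest reads behind any of these levels, 495 reads of Emilin3, had a counting error of 4.49%.

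**Figure D1:**
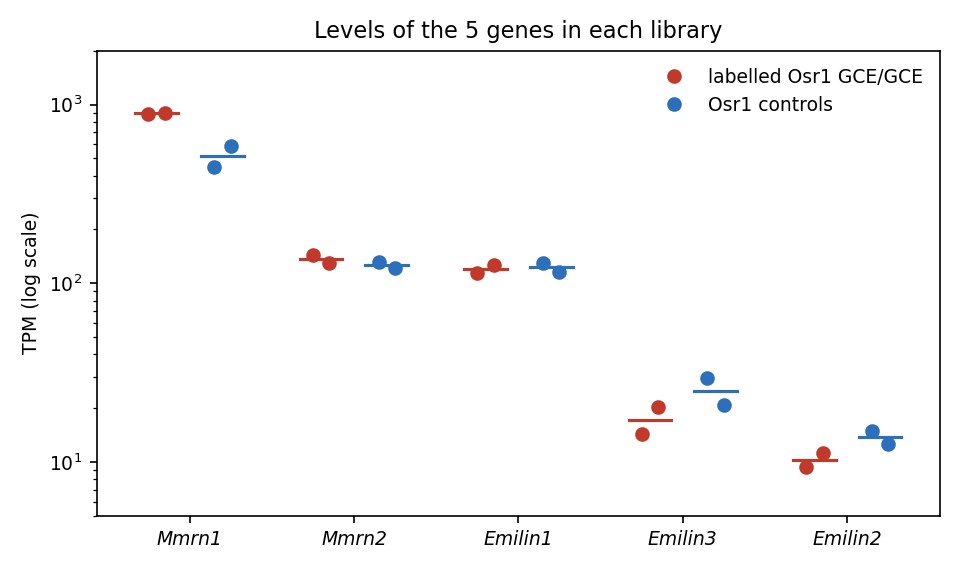
Level of each family gene in TPM on a log axis, with 1 point per library and a line at the mean of each group of 2 libraries. Mmrn1 lies above the other genes in every library, at 883 and 901 TPM in the GCE/GCE-labelled libraries and 449 and 586 TPM in Osr1 controls.

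Shares within the family were read next, since they do not depend on the scaling between libraries. Mmrn1 made up 75.8% and 75.8% of the family's summed TPM in the GCE/GCE-labelled libraries, against 59.5% and 68.4% in Osr1 controls. The family sum was 1164 and 1189 TPM in the GCE/GCE-labelled libraries, against 755 and 857 TPM in Osr1 controls. Without Mmrn1 the remaining 4 genes summed to 282 and 287 TPM in the GCE/GCE-labelled libraries, between the 306 and 271 TPM of the Osr1 controls.

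**Figure D2:**
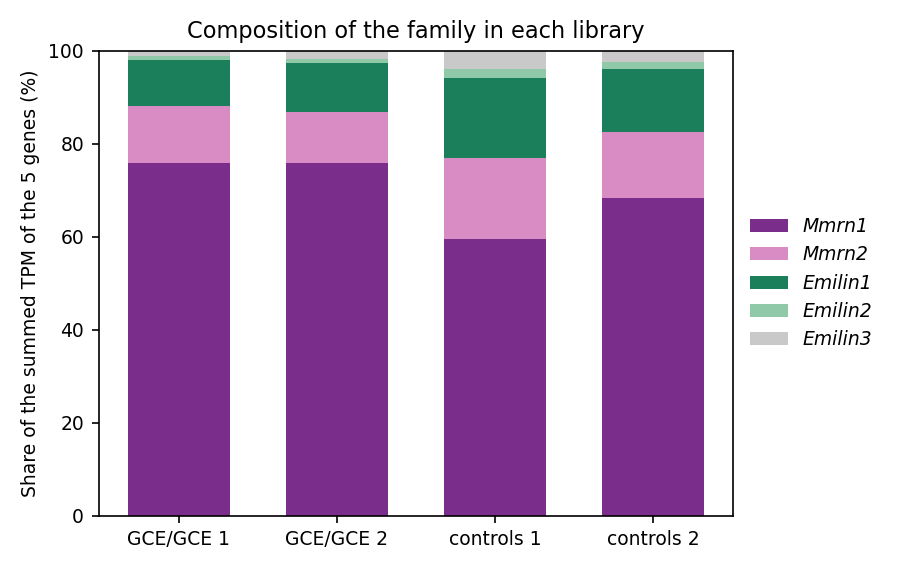
Share of each gene in the summed TPM of the family, in percent, for each of the 4 libraries. The Mmrn1 part is 75.8% in both GCE/GCE-labelled libraries and 59.5% and 68.4% in Osr1 controls.

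Mmrn1 encodes multimerin 1, a very large soluble protein that carries factor V in human platelets (ENSMUSG00000054641.10, chromosome 6 of mm10 from 60924976 to 60989378, plus strand, with 3 annotated transcripts). Its normalized counts were 55087 and 55941 in the GCE/GCE-labelled libraries, against 26847 and 34195 in Osr1 controls. The GCE/GCE-labelled libraries lay close together and above both controls, which were themselves farther apart. The log2 fold change was 0.87 (standard error 0.12, 95% interval 0.60 to 1.14), a fold of 1.83, and it passed the test with an adjusted p of 0.0276 from limma over all tested genes. By p-value Mmrn1 ranked 41 and by size of the increase 401 of 19479 genes. The call was 1 of 5 members, where limma called 1.13% of all tested genes higher and 1.75% lower, and no member was called lower. On recovered reads edgeR also called Mmrn1 and no other member (log2 fold change 0.86, adjusted p = 0.0291), where it called 1.07% of all genes higher and 1.62% lower. DESeq2 called Mmrn1 and no other member as well (0.86, adjusted p = 7.4e-08), where it called 2.85% of all genes higher and 4.60% lower.

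With each library left out in turn the log2 fold change lay between 0.70 and 1.05. The call ended without GCE/GCE-labelled replicate 1 (log2 fold change 0.88, adjusted p = 0.150) and without GCE/GCE-labelled replicate 2 (0.86, adjusted p = 0.0598, both from limma), and over all alternatives the adjusted p ran from 7.4e-08 with DESeq2 to 0.211 with limma without its trend and robust options. Leaving out replicate 1 of the Osr1 controls, the library with the lowest normalized count of Mmrn1, gave a log2 fold change of 0.70. These fits differ in how many genes they call, which bears on every count given for them. Limma called 0.0667% of all tested genes higher and 0.0616% lower without GCE/GCE-labelled replicate 1, and 0.503% higher and 0.981% lower without GCE/GCE-labelled replicate 2. It called 1.22% higher and 3.21% lower without replicate 1 of the Osr1 controls, and 2.01% higher and 5.49% lower without replicate 2 of the Osr1 controls. With 2 libraries against 2 the smallest two-sided p of an exact permutation test is 0.333, and the adjusted p-values therefore rest on a spread that limma shares between genes.

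**Figure D3:**
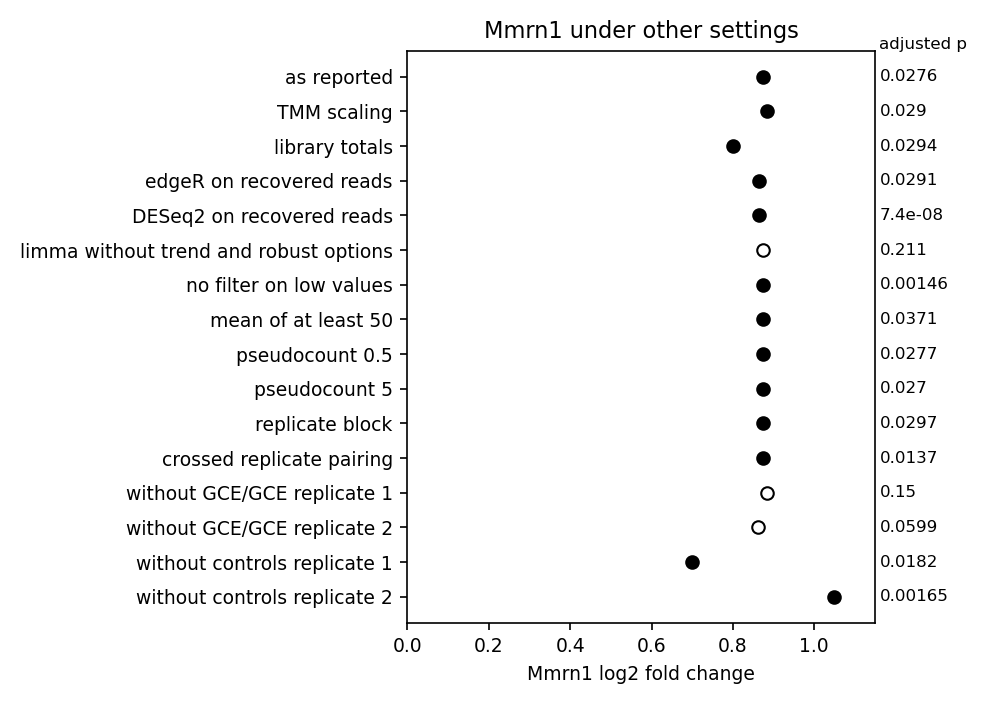
Log2 fold change of Mmrn1 (GCE/GCE-labelled libraries minus Osr1 controls) as reported and under other settings, with the adjusted p at the right. Filled points have an adjusted p under 0.05, open points do not. The estimates lie between 0.70 and 1.05, and 3 of the points are open.

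Mmrn2 encodes multimerin 2, an endothelial matrix protein that binds VEGF-A and dampens signalling through VEGFR2 (ENSMUSG00000041445.9, chromosome 14 of mm10 from 34375465 to 34404287, plus strand). It had normalized counts of 6070 and 5465 in the GCE/GCE-labelled libraries, against 5295 and 4787 in Osr1 controls. The groups did not overlap, but the gap between them was smaller than the gap between replicates of either group. The log2 fold change of 0.19 (95% interval -0.03 to 0.42) did not pass the test (adjusted p = 0.301 from limma), and it ran from 0.12 to 0.27 with a library left out.

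Emilin1 (ENSMUSG00000029163.9, chromosome 5 of mm10 from 30913402 to 30921277, plus strand) had normalized counts of 6022 and 6565 in the GCE/GCE-labelled libraries, against 6564 and 5703 in Osr1 controls. The groups overlapped, and the estimate of 0.04 (95% interval -0.19 to 0.27, adjusted p = 0.864 from limma) was below 0 with library totals as the scaling, without GCE/GCE-labelled replicate 2 and without replicate 2 of the Osr1 controls. Within each library Mmrn1 stood higher over Emilin1 in the GCE/GCE-labelled libraries, with log2 TPM ratios of 2.94 and 2.84, than in Osr1 controls, with 1.78 and 2.33. This ratio does not depend on the scaling between libraries. The difference of 0.83 had the smallest p that an exact permutation test allows here (two-sided p = 0.333).

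Emilin2, a matrix protein that can trigger apoptosis through death receptors in human tumour cells (ENSMUSG00000024053.11, chromosome 17 of mm10 from 71252172 to 71311978, minus strand), had normalized counts of 550 and 652 in the GCE/GCE-labelled libraries, against 830 and 691 in Osr1 controls. Both GCE/GCE-labelled libraries were below both controls, but the log2 fold change of -0.34 (standard error 0.15) did not pass the test (unadjusted p = 0.0484, adjusted p = 0.231 from limma). With a library left out it ran from -0.47 to -0.21, nearest to 0 without replicate 1 of the Osr1 controls. The gene lies within the span of a long noncoding RNA gene on the opposite strand, Gm26561, with 0 shared exon bases. The library kit does not mark strand.

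Emilin3 encodes the member without a gC1q domain, known in the mouse embryo from perichondrium and notochord (ENSMUSG00000050700.11, chromosome 2 of mm10 from 160906437 to 160912328, minus strand). The name has also been used for Mmrn2 in older records, so rows were matched by gene ID. Its normalized counts were 537 and 759 in the GCE/GCE-labelled libraries, against 1060 and 734 in Osr1 controls. The groups overlapped, since the lower control lay below the higher GCE/GCE-labelled library, and the log2 fold change of -0.46 (95% interval -1.02 to 0.09) did not pass the test (adjusted p = 0.306 from limma). With a library left out it ran from -0.73 (without replicate 2 of the Osr1 controls) to -0.20 (without replicate 1 of the Osr1 controls). Over the family, the groups did not overlap and read higher for 2 of 5 members, Mmrn1 and Mmrn2, where 24.7% of all tested genes did so. They did not overlap and read lower for 1 of 5 members, Emilin2, where 28.9% of all tested genes did so.

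Markers of LECs and of other cells differed between the libraries as well. Averaged on the log2 scale, 7 LEC markers stood 0.57 higher in the GCE/GCE-labelled libraries, with 7 of 7 estimates above 0. Limma called 3 of them higher (Flt4, Nrp2 and Pdpn), where it called 1.13% of all tested genes higher. Without replicate 1 of the Osr1 controls, the library that stood apart, the mean difference was 0.34, with 5 of 7 estimates above 0. With another library left out it ran from 0.51 (without GCE/GCE-labelled replicate 1) to 0.81 (without replicate 2 of the Osr1 controls). The call of Nrp2 ended without GCE/GCE-labelled replicate 1 (adjusted p = 0.0839 from limma), and that of Flt4 ended without that library (0.243), without replicate 2 of the same label (0.0879) and without replicate 1 of the Osr1 controls (0.108). Set against the LEC marker mean of its own library, Mmrn1 lay at 1.30 and 1.45 log2 units in the GCE/GCE-labelled libraries, against 1.14 and 1.02 in Osr1 controls, which left a difference of 0.30 of the 0.87. The groups still did not overlap, and neither did the normalized counts of 53.6% of all tested genes. Against single LEC genes the remaining difference depended on the gene chosen. It was 0.64 over Lyve1, the hyaluronan receptor, 0.25 over Flt4, the VEGF-C receptor, and 0.16 over Nrp2, its co-receptor, each without overlap. Over Pdpn, a sorting marker, it was 0.26, also without overlap. Each of these ratios had the smallest p that an exact permutation test allows here (two-sided p = 0.333). The difference was 0.08 over Prox1, the transcription factor of lymphatic identity, and 0.08 over Reln, which encodes a secreted LEC glycoprotein, both with overlap. How far the LEC share of the sorted cells accounts for the Mmrn1 difference was not tested.

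Platelets, the other rich source of multimerin 1, were represented by 8 markers, which summed to 151 and 116 TPM in the GCE/GCE-labelled libraries, against 111 and 44.4 TPM in Osr1 controls. All 8 estimates were above 0, with a mean difference of 0.93 log2 units. With all 4 libraries no marker was called by limma, edgeR or DESeq2. This list turned on the controls, in its limma calls as in its estimates. Without replicate 1 of the Osr1 controls the mean difference was 1.67, with 8 of 8 estimates above 0. Without replicate 2 of the Osr1 controls it was 0.19, with 6 of 8 estimates above 0. Replicate 1 of the Osr1 controls had more platelet marker TPM and a lower normalized count of Mmrn1 (26847 against 34195) than replicate 2 of the Osr1 controls. The part of platelet RNA in the Mmrn1 difference was not tested. F5, the gene of factor V, which human multimerin 1 binds, had normalized counts of 281 and 291 in the GCE/GCE-labelled libraries, against 180 and 70.1 in Osr1 controls. Both controls were lower and far from each other, and the log2 fold change of 1.34 (standard error 0.44) did not pass the test (adjusted p = 0.171 from limma). It was called with DESeq2 (1.18, adjusted p = 0.0291) and with limma without replicate 1 of the Osr1 controls (2.01, adjusted p = 0.00068), and it was 0.66 without replicate 2 of the Osr1 controls (adjusted p = 0.0744).

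Mmrn2 was also set against the endothelial markers of the same library. Over the mean of 8 markers shared by blood and lymphatic endothelium its difference was -0.02 log2 units with overlap. That of Mmrn1 was 0.66 without overlap, where the normalized counts of 53.6% of all tested genes did not overlap. Emilin2 and Emilin3 had estimates on the same side as the 10 mesenchymal markers, whose mean differed by -0.63 log2 units (-0.41 without replicate 1 of the Osr1 controls), with 0 of 10 estimates above 0. Of these markers 3 were called lower by limma and 7 by DESeq2, where they called 1.75% and 4.60% of all tested genes lower. The limma calls ended without either GCE/GCE-labelled library. The mean difference was -0.49 without GCE/GCE-labelled replicate 1 and -0.85 without replicate 2 of the Osr1 controls. Over the mesenchymal mean, Emilin2 stood 0.29 and Emilin3 0.16 log2 units higher in the GCE/GCE-labelled libraries. Blood endothelial and mural marker means were lower there as well, by -0.58 and -0.87 log2 units. The medians of these lists were -0.57 and -0.84. Without replicate 1 of the Osr1 controls they were -0.13 and -0.25, with 4 of 8 and 2 of 8 estimates above 0. Without replicate 2 of the Osr1 controls they were -0.86 and -1.20. Over the blood endothelial mean the differences were 0.24 for Emilin2 and 0.12 for Emilin3, both with overlap. Over the mural mean they were 0.53 and 0.40. Over the mean of 7 tested markers of cartilage and notochord the Emilin3 difference was -0.06 with overlap. The Emilin1 difference was -0.53 over the LEC marker mean and 0.67 over the mesenchymal mean. Markers of skeletal muscle summed to 143 and 149 TPM in the GCE/GCE-labelled libraries, against 281 and 303 TPM in Osr1 controls. Limma called 5 of 8 lower and DESeq2 8 of 8, where they called 1.75% and 4.60% of all tested genes lower. The mean difference of this list was -0.92. With a library left out it ran from -0.97 (without replicate 1 of the Osr1 controls) to -0.86 (without replicate 2 of the Osr1 controls). The limma calls of this list ended without GCE/GCE-labelled replicate 1. Mesothelial and epithelial markers summed to 66.2 and 102 TPM in the GCE/GCE-labelled libraries, against 152 and 169 TPM in Osr1 controls, with 0 of 7 tested estimates above 0. Limma and edgeR called none of them, and DESeq2 called 3 lower, where it called 4.60% of all tested genes lower. Whether other cells in the sort contributed transcripts of the family was not tested.

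**Figure D4:**
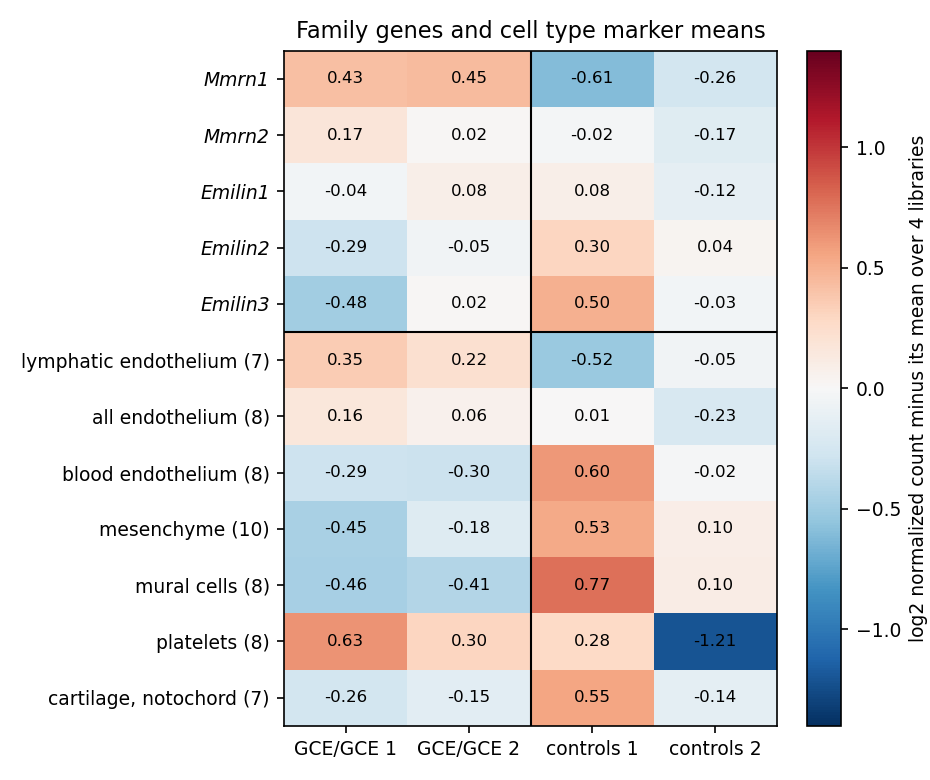
Log2 normalized count minus its mean over the 4 libraries for each family gene (upper rows) and for the mean of each cell type marker list (lower rows, number of markers in parentheses). Mmrn1 and the LEC markers are lowest in replicate 1 of the Osr1 controls, at -0.61 and -0.52. Emilin3 (0.50) and Emilin2 (0.30) are highest there. So are the mesenchymal (0.53), mural (0.77), blood endothelial (0.60) and cartilage and notochord (0.55) markers.

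The partners of the family were read from lists of genes. Integrins that bind the gC1q domain of EMILIN1 are built from the subunits of Itga9 and Itga4 with that of Itgb1. Itga9, whose product shapes lymphatic valve leaflets, had normalized counts of 15777 and 14709 in the GCE/GCE-labelled libraries, against 9868 and 10729 in Osr1 controls. It was higher without overlap (log2 fold change 0.57 ± 0.09, standard error, limma adjusted p = 0.0329), where 24.7% of all tested genes were so. This call ended without GCE/GCE-labelled replicate 1 (log2 fold change 0.52). Itgb1 had a log2 fold change of 0.27 (adjusted p = 0.118) and Itga4 one of -0.65 (adjusted p = 0.454), so limma called 1 of 3 integrin genes higher, where it called 1.13% of all genes higher. Itga4 was high in replicate 1 of the Osr1 controls alone, with normalized counts of 1282 and 1164 in the GCE/GCE-labelled libraries, against 2748 and 1339 in Osr1 controls. Its estimate was -0.13 without that library, and without replicate 2 of the Osr1 controls it was -1.17 and called lower (adjusted p = 0.00037 from limma). The list median was 0.27, against -0.02 over all tested genes. Over Itga9 within a library, Mmrn1 differed by 0.31 and Emilin1 by -0.53 log2 units.

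None of the 3 genes whose products bind multimerin 2, known mainly for the human proteins, was called with all 4 libraries by limma, edgeR or DESeq2. Their estimates and limma calls turned on the controls. Without replicate 2 of the Osr1 controls the log2 fold changes were -1.02 for Cd93, -1.25 for Clec14a and -0.77 for Cd248. Without replicate 1 of the Osr1 controls they were 0.03, -0.28 and -0.12. Their median was -0.49 (-0.12 without replicate 1 and -1.02 without replicate 2 of the Osr1 controls). Cd93 had normalized counts of 6881 and 6443 in the GCE/GCE-labelled libraries, against 13479 and 6514 in Osr1 controls. Only replicate 1 of the controls was high. Clec14a (log2 fold change -0.76, adjusted p = 0.343) and Cd248 (-0.45, adjusted p = 0.366, both from limma) also had their highest count in that library, which also had the most blood endothelial and mural marker transcripts.

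Of 4 genes for growth factors and their processing, limma called 1 higher and 1 lower, beside 1.13% and 1.75% of all genes, with a median of 0.21 (0.011 without GCE/GCE-labelled replicate 1 and 0.41 without GCE/GCE-labelled replicate 2). Kdr, the gene of VEGFR2, had normalized counts of 55918 and 53227 in the GCE/GCE-labelled libraries, against 38295 and 36270 in Osr1 controls (log2 fold change 0.55, adjusted p = 0.0293 from limma). Vegfa, whose product multimerin 2 binds, had 3044 and 2804 in the GCE/GCE-labelled libraries, against 3857 and 4065 in Osr1 controls (log2 fold change -0.44, adjusted p = 0.0479 from limma). Kdr was higher and Vegfa lower without overlap between the groups, where 24.7% and 28.9% of all tested genes were so. The Kdr call ended without GCE/GCE-labelled replicate 1 (adjusted p = 0.102) and without replicate 2 of the Osr1 controls (0.0506), and the Vegfa call ended without GCE/GCE-labelled replicate 1 (0.180) or 2 (0.163) and also without replicate 2 of the controls (0.0583, all from limma). Tgfb1, whose precursor EMILIN1 holds back from processing, had a log2 fold change of 0.39 (adjusted p = 0.128), and Furin, the protease of that step, one of 0.03 (adjusted p = 0.943).

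The elastic fibre genes that meet EMILIN1 in the matrix had 0 of 5 calls with limma and with edgeR and a median of -0.43. DESeq2 called 1 of 5 higher and 3 lower, where it called 2.85% and 4.60% of all genes. Limma called 3 of 5 lower without replicate 2 of the Osr1 controls, where it called 5.49% of all genes lower. Fbn1, the gene of fibrillin 1, had a log2 fold change of 0.30 (adjusted p = 0.104), Eln, the gene of elastin, one of -0.64 (adjusted p = 0.147), and Lox, the gene of an elastin cross-linking enzyme, one of -0.62 (adjusted p = 0.0755, all from limma). Among 4 proteases that cut EMILIN1 or multimerin 2, 2 were tested and none was called by limma, edgeR or DESeq2. Mmp14 had a log2 fold change of 0.20 (adjusted p = 0.218) and Mmp9 one of -0.58 (adjusted p = 0.591). Mmp3 and Elane stayed under a mean count of 10.

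**Figure D5:**
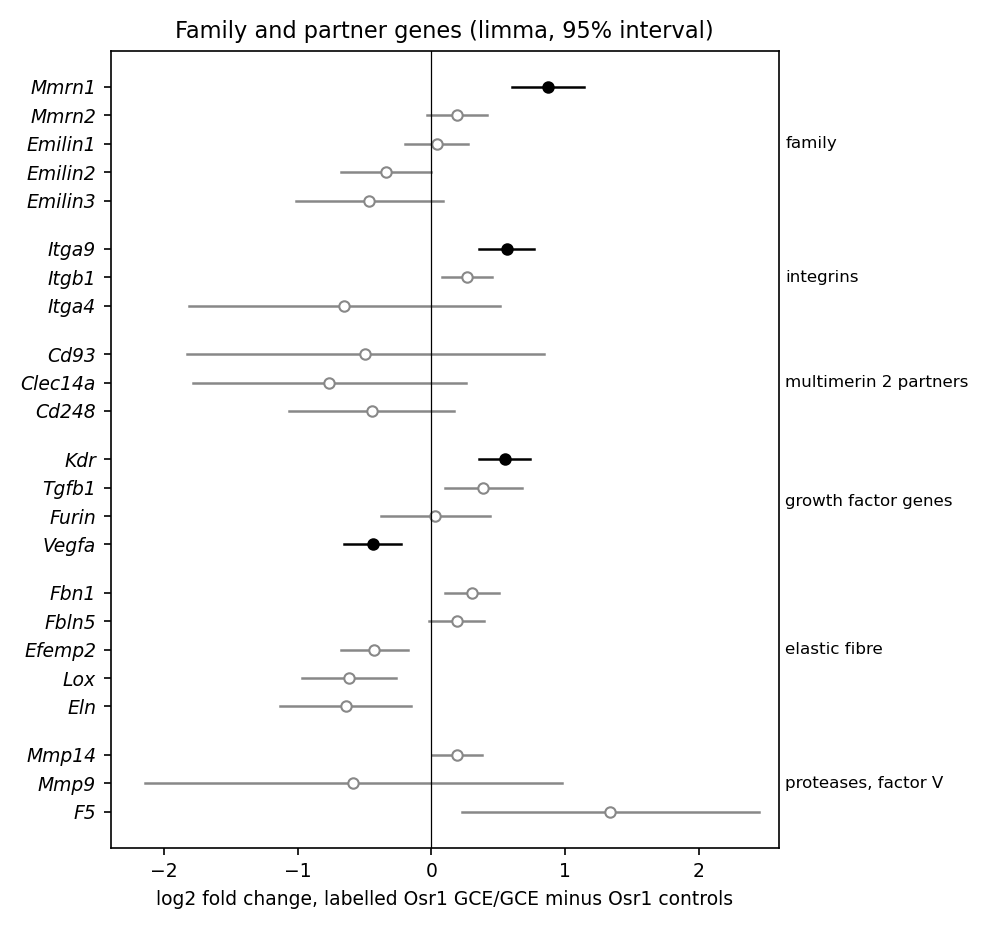
Log2 fold change (GCE/GCE-labelled libraries minus Osr1 controls) with its 95% interval from limma for the family and the genes of its partners. Filled black points passed all thresholds: Mmrn1 at 0.87, Itga9 at 0.57, Kdr at 0.55 and Vegfa at -0.44.

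Other genes encode proteins with the domains of this family. Of 8 further genes with an EMI domain limma called none higher and 1 lower, beside 1.13% and 1.75% of all genes, with a median of -0.19 (-0.036 without replicate 1 and -0.34 without replicate 2 of the Osr1 controls). DESeq2 called 1 higher and 2 lower, where it called 2.85% and 4.60% of all genes. Tgfbi, a secreted integrin ligand induced by TGF-beta, had normalized counts of 3595 and 3089 in the GCE/GCE-labelled libraries, against 5820 and 4707 in Osr1 controls (log2 fold change -0.65, adjusted p = 0.0434 from limma). This call ended without replicate 1 (adjusted p = 0.136) or replicate 2 (0.110) of the GCE/GCE-labelled libraries. Its relative Postn had an estimate of -0.48 (adjusted p = 0.108), while Pear1, a receptor of platelets and endothelium, had 0.38 (0.0856) and Megf6 had 0.24 (0.197).

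Among 26 further genes with a C1q domain 22 were tested, and limma called 3 lower and none higher, beside 1.75% and 1.13% of all genes, with a median of -0.74. DESeq2 called 4 lower and none higher, where it called 4.60% and 2.85% of all genes. The 3 were Col8a1, a short-chain collagen (log2 fold change -1.15, adjusted p = 0.0329), Caprin2, which encodes an RNA-binding protein (-0.87, adjusted p = 0.0276), and C1qtnf9, at normalized counts of 20.6 and 16.1 in the GCE/GCE-labelled libraries against 69.1 and 50.2 in Osr1 controls (-1.64, adjusted p = 0.0455, all from limma). Without GCE/GCE-labelled replicate 1 none of the 3 was called (adjusted p = 0.150 for Col8a1, 0.113 for Caprin2 and 0.152 for C1qtnf9), and C1qtnf9 also lost its call without replicate 2 of that label (0.101) and without replicate 1 of the controls (0.116). Of the abundant members that did not pass, C1qtnf6 had an estimate of 0.16, Col8a2 of -1.03 and C1qtnf3 of -0.90. Without replicate 1 of the Osr1 controls, the library richest in mesenchymal and mural markers, the list median was -0.36.

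Genes with a pattern over the 4 libraries close to that of a member were searched among 12268 further protein-coding genes, by the root mean square difference of log2 counts centred on their mean. Closest to Mmrn1 were Tc2n (0.047), Slc23a3 (0.0526) and Ttpa (0.0535), and 16 genes lay within 0.1. Tc2n had normalized counts of 5553 and 5779 in the GCE/GCE-labelled libraries, against 2959 and 3572 in Osr1 controls, the same order of libraries as Mmrn1 at a lower level. The flatter members had many more neighbours, 2354 genes for Mmrn2 (led by Rab12, Snap23 and Sash1), 1857 for Emilin1 (Zfp266, Stard5 and 9530068E07Rik), 465 for Emilin2 (Akap6, Prrxl1 and Fam69a) and 105 for Emilin3 (Cntn2, Smoc2 and Dusp26). With 4 libraries such closeness describes these pools only.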

How the data were processed

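The authors prepared polyA RNA libraries with a TruSeq V2 kit, aligned reads to mm10 with STAR and counted them per gene with featureCounts, with versions not given in the sources used here. As signal values the authors deposited read counts divided by DESeq2 size factors (normalized counts). Each value times its library's size factor (GCE/GCE-labelled 0.921 and 0.807, Osr1 controls 1.40 and 0.955) gave whole reads within 0.001 reads for 100% of values. Symbols, positions and exon lengths came from GENCODE release 21 for mouse, where 55144 of 55385 IDs were found, and TPM were computed from normalized counts and exon union length.

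Groups were compared with limma 3.58.1 under R 4.3.3, its trend and robust options on, using log2(normalized count + 1) of 19479 genes whose mean reached 10. Fold changes on that scale are too small for low genes. The study's thresholds defined a call, namely a log2 fold change of 0.3 or more in either direction, a p under 0.05 after Benjamini-Hochberg adjustment over all tested genes, and a mean TPM over 1. Alternatives were edgeR 4.0.16 and DESeq2 1.42.0 on recovered reads, TMM scaling, library totals, other filters, pseudocounts and thresholds, the replicate number as a block, and each library left out. A fit without 1 library takes its spread from the group that still has 2. Counts for 19479 genes were simulated several times, and the results were pooled. Limma found 18.2% of 335 log2 changes of 0.5, 58.5% of 335 changes of 1 and 85.5% of 330 changes of 2. It called 0.105% of 96395 unchanged genes. That made 101 wrong calls in the pool, beside 61, 196 and 282 right ones for the 3 sizes. This share of wrong calls was above the 0.05 that the adjustment allows. It depends on how few genes were changed and need not hold for these data.

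The genes named are the 5 members, Osr1, Pdpn and Pecam1, called members of the lists and up to 3 further members with the highest TPM, and the 3 nearest patterns per member among genes with a mean of at least 100. Marker genes given singly and Gm26561 were chosen after their values were seen. The members and lists were chosen with earlier results of these data known. Ratios over single LEC genes and over marker means were added after seeing the data. Protein sequences were not used here. Figures were drawn with matplotlib 3.10.9.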

Additional observations from a re-analysis of the deposited data

How the results depend on the processing

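No member other than Mmrn1 was called under any of 19 alternatives, and Mmrn1 was called under 15. The number of members called higher was 0 with limma without its trend and robust options and 0 with a log2 fold change of at least 1, and ran from 0 to 1 with a library left out, being 0 without either GCE/GCE-labelled library. Without those limma options no gene of the whole table was called, with 3425 at an unadjusted p under 0.05, against 524 calls by edgeR. The Emilin1 estimate was -0.033 with library totals, and with a library left out it ran from -0.062 to 0.14, below 0 (-0.023) without GCE/GCE-labelled replicate 2 and lowest without replicate 2 of the Osr1 controls. Calls over all genes numbered 562 (221 higher, 341 lower), against 1453 with DESeq2, 1120 with no filter on low values, 128 with a log2 fold change of at least 1 and 1488 with an adjusted p under 0.1. With TMM scaling there were 237 higher and 232 lower, and with library totals 197 higher and 480 lower. With a library left out they ran from 25 (without GCE/GCE-labelled replicate 1) to 1460 (without replicate 2 of the Osr1 controls). Medians of the lists then ran from 0.011 to 0.41 for growth factor genes, from -0.34 to -0.036 for EMI domain genes, from -0.74 to -0.36 for C1q domain genes and from -1.02 to -0.12 for multimerin 2 partners. The cause of these shifts was not tested.

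The labels do not say that a replicate number marks a shared litter or day, and deviations of same-numbered libraries correlated at -0.12 over genes. With the replicate block 125 genes were called, Mmrn1 among them (adjusted p = 0.0297 from limma), while Itga9, Kdr, Vegfa, Col8a1, C1qtnf9, Flt4 and Pdpn were not. With the crossed pairing, chosen after seeing the data, 1282 were called. C1qtnf9 was also not called with TMM scaling (adjusted p = 0.0505) and got no adjusted p from DESeq2. Counting error was at most 4.49% for any member.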
